A study of Mus musculus with 6 samples.

Results

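The miR-379 to miR-410 array of the imprinted Dlk1-Dio3 region was examined in small RNA libraries from mouse skeletal muscle. Its members were taken by name from the table of mature miRNA counts, as every row whose miRNA number stood on a list of 40 numbers of this region, with any letter suffix and either arm. This gave 38 rows from 29 hairpins, of 392 miRNA rows in all. Of the 40 numbers, 27 had a row. The 13 others, miR-370, miR-377, miR-410, miR-495, miR-539, miR-543, miR-544, miR-667, miR-668, miR-679, miR-758, miR-770 and miR-1197, had no row in the table used here. Every miRNA row of that table reached at least 10 molecules in some library.

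The study compared skeletal muscle of mice with heart failure after transverse aortic constriction (TAC), an operation that narrows the aorta and overloads the left ventricle, with muscle of mice labelled Sham, whose treatment is recorded as Control. There were 3 TAC and 3 Sham libraries, each from a male C57BL6 mouse aged 16 weeks on normal chow. The sample records give 8 weeks of treatment, while the protocol gives a harvest 8 to 10 weeks after TAC, and the muscle taken is not named. Libraries were made from 100 ng of total RNA with the QIAseq miRNA kit, which gives each molecule a unique molecular identifier (UMI). The labels do not say whether the libraries of a group came from separate litters or operation days, so p-values measure the spread between these libraries.

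The Dlk1-Dio3 region encodes proteins from the paternal chromosome (Dlk1, Rtl1 and Dio3) and long non-coding RNAs, small nucleolar RNAs and one of the largest mammalian miRNA arrays from the maternal chromosome. The array is read as part of long maternal transcripts that include Meg3, Rian and Mirg, from which each hairpin is cut to give a 5p and a 3p arm. Its miRNAs are abundant in embryo, placenta and brain, and in rat neurons and mouse myoblasts transcription of the array has been tied to Mef2 factors. A miRNA recognises its targets mainly through its seed, bases 2 to 8 from the 5′ end.

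The array from Mir379 to Mir410 spans 34.7 kb of chromosome 12 (109709060 to 109743795 in GRCm38). It held 32 member rows from 24 hairpins, all on the plus strand except miR-299b, which is annotated on the minus strand opposite miR-299a. The other 6 rows came from 5 hairpins upstream of Mir379, namely miR-341-3p, miR-493-5p, miR-540-3p, miR-540-5p, miR-665-3p and miR-673-3p. By GENCODE vM21 annotation, 9 of the hairpins (11 rows) lay within the span of the long non-coding gene Mirg (109729764 to 109749460, plus strand), and miR-341 within that of Rian.

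Mature sequences from RefSeq (GRCm38.p6) matched 35 of the 38 rows, and the following are those on which the results turn, written 5′ to 3′ with the seed in capitals. The first are the 4 most abundant members, which held most of the array's molecules.

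miR-379-5p: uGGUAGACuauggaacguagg
miR-541-5p: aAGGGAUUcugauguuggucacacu
miR-411-5p: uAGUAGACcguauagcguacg
miR-382-5p: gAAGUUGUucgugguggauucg

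The next, together with miR-382-5p, are the members that passed the test, as lower in TAC, under every processing alternative.

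miR-299a-5p: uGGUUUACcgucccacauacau
miR-323-3p: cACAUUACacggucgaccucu
miR-369-5p: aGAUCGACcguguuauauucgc
miR-409-5p: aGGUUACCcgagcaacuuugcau
miR-493-5p: uUGUACAUgguaggcuuuc
miR-666-3p: gGCUGCAGcgugaucgccugcu

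The last are the members with the smallest differences and a pair that cannot be counted apart with certainty.

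miR-134-5p: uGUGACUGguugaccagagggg
miR-381-3p: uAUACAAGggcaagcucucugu
miR-300-3p: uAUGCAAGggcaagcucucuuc
miR-299a-3p: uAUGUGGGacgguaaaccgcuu
miR-299b-3p: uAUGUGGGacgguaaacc

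Among the 35 members with a sequence, nearly all seeds were different. The only seed shared between them was that of miR-299a-3p and miR-299b-3p (AUGUGGG), and the only one shared with a listed miRNA elsewhere was that of miR-329-3p, which miR-362-3p also carries (ACACACC). All 18 bases of miR-299b-3p lie within miR-299a-3p and all 21 bases of miR-299b-5p within miR-299a-5p, so how the counts were split between these rows is uncertain. Another similar pair was miR-300-3p and miR-381-3p, which differ at 3 of 22 bases.

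Array miRNAs made up a small part of the muscle's miRNA and were less abundant in TAC muscle. They held 0.0885%, 0.0917% and 0.0896% of the miRNA UMIs in TAC 1, 2 and 3, against 0.263%, 0.279% and 0.335% in Sham 1, 2 and 3. The values did not overlap, and the TAC share was 0.307 times that in Sham. After scaling with TMM factors (trimmed mean of M values, which correct for a few miRNAs taking most of a library), the tested members summed to 980 ± 25.6 counts per 1000000 miRNA UMIs (CPM) in TAC and 2606 ± 129 CPM in Sham (mean ± SD, n = 3 each), a ratio of 0.376. Without Sham 3 this ratio was 0.404, and scaled by library size alone it was 0.308. These are sums over a whole tissue, in which fewer cells of a type and less RNA per cell cannot be told apart.

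Of the 38 members, 30 passed the filter on low counts. Among these 24 were lower in TAC, 0 were higher and 6 did not pass the test (edgeR quasi-likelihood test, Benjamini-Hochberg adjusted p under 0.05 over 322 tested miRNAs). Over all tested miRNAs, 71 passed (22.0%), of which 51 were lower (15.8%) and 20 higher. The log2 fold changes of TAC over Sham lay between -3.59 and -0.03 in the 30 members, with a median of -1.68, beside a median of 0.04 over all tested miRNAs. In 27 of the 30, every TAC library was below every Sham library, as it was in 72 of all 322 (22.4%). All 24 that passed were lower by more than 1 on the log2 scale and 10 by more than 2. A member scarce in TAC could pass the filter only by being high in Sham, and so lower in TAC. With fewer than 10 UMIs in every TAC library, this held for miR-323-3p, miR-380-5p, miR-412-5p, miR-487b-3p, miR-494-3p, miR-1193-3p, miR-666-3p and miR-666-5p. Of these, all but miR-494-3p and miR-1193-3p were lower by more than 2 on the log2 scale. The filter asked for 3 libraries of either group at its depth-scaled cut of 10 counts. By this rule miR-299b-3p, miR-329-3p, miR-329-5p, miR-493-5p and miR-540-3p, with too few UMIs in most TAC libraries, also needed Sham libraries to pass. All but miR-540-3p of this second list were counted as lower. With no filter, all 38 members had log2 fold changes below 0 and 24 passed the test. The 8 members added in this way reached 10 UMIs only in Sham libraries. Since every listed row reached 10 in some library, their direction was largely set by being listed.

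The number that passed depended on single libraries. It was 7 without Sham 1, 11 without TAC 2, 13 without TAC 1, 14 without Sham 2, 20 without TAC 3 and 24 without Sham 3. The count over all miRNAs moved in the same way, between 17 without Sham 1 and 73 without Sham 3. The 7 members that passed under each of 16 alternatives were miR-299a-5p, miR-323-3p, miR-369-5p, miR-382-5p, miR-409-5p, miR-493-5p and miR-666-3p. Among them, miR-323-3p and miR-666-3p had passed the filter through Sham alone. With 12, 9 and 15 UMIs in TAC 1, 2 and 3, miR-493-5p also needed Sham libraries to pass it. With the replicate number as a block, 27 members were lower, the 3 additional ones being miR-300-3p, miR-376b-5p and miR-540-3p, and over all 322 miRNAs 70 were lower.

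**Figure D1:**
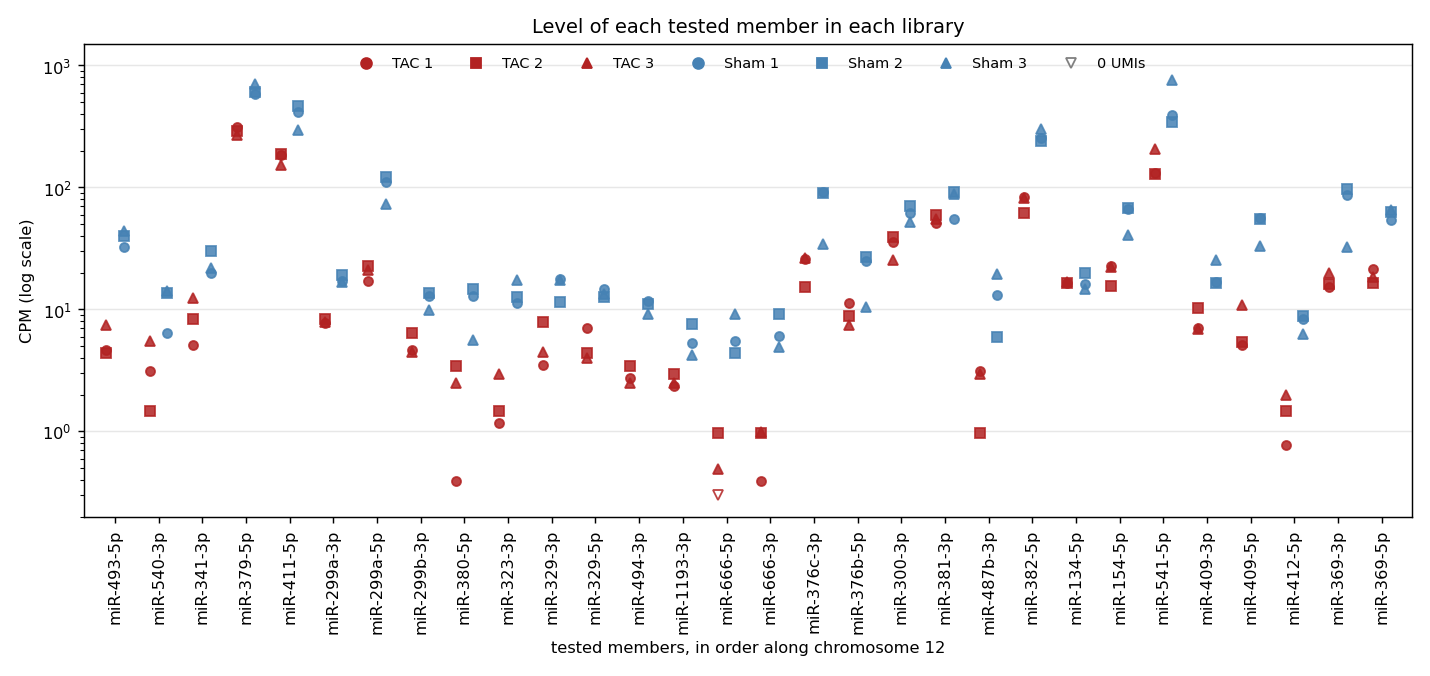
Level of the 30 tested members in each library, in CPM on a log scale, ordered along chromosome 12, with TAC (red) left of Sham (blue) and 1 marker shape per library number. TAC points lie below Sham points throughout except for miR-134-5p, miR-381-3p and miR-376b-5p, where the groups overlap; the open triangle marks miR-666-5p at 0 UMIs in TAC 1.

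The 4 most abundant members were all lower in TAC. The leading one, miR-379-5p, the arm from the hairpin that opens the array, had 311, 290 and 270 CPM in TAC 1, 2 and 3, against 582, 605 and 699 CPM in Sham 1, 2 and 3. The TAC values were tight and all below Sham. Its log2 fold change was -1.11 (SE 0.20, adjusted p = 0.00964), and the call was lost without Sham 1 (adjusted p = 0.0525) or without TAC 2 (0.0666).

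Near the other end of the array, miR-541-5p had 130, 130 and 205 CPM in TAC, against 394, 346 and 762 CPM in Sham. The third library of each group was the highest of its group, and the groups did not overlap (log2 fold change -1.69, SE 0.37, adjusted p = 0.0188). Next to miR-379, miR-411-5p had 184, 189 and 152 CPM in TAC, against 416, 462 and 298 CPM in Sham. Here the third library of each group was the lowest, and the groups again stayed apart (log2 fold change -1.16, SE 0.25, adjusted p = 0.0171). The miR-541-5p call was lost without TAC 1, TAC 2 or Sham 1 (adjusted p from 0.0525 to 0.0869), and the miR-411-5p call without any of these or Sham 2 (0.0621 to 0.0705).

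The fourth, miR-382-5p, had 83.5, 61.6 and 82.5 CPM in TAC, against 257, 242 and 300 CPM in Sham. The gap between the groups was wide, and its log2 fold change was -1.81 (SE 0.24, adjusted p = 0.00693). These 4 miRNAs held 71.5%, 69.7% and 69.6% of member UMIs in TAC 1, 2 and 3, against 65.6%, 63.0% and 74.1% in Sham 1, 2 and 3. All other members together, tested or not, came to 295 ± 13.9 CPM in TAC and 852 ± 126 CPM in Sham (SD, n = 3 each), a ratio of 0.347. The lower level of the array thus did not rest on its abundant members alone. However, this remaining sum includes scarce members that were listed or passed the filter only through Sham.

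Besides miR-382-5p, the members with the 5 smallest p-values were miR-493-5p, miR-299a-5p, miR-369-5p and miR-409-5p. First of all 322 miRNAs by p stood miR-493-5p, which lies upstream of the array, with 4.68, 4.40 and 7.45 CPM in TAC, against 32.2, 39.9 and 43.6 CPM in Sham. Every Sham library was several times above every TAC library (log2 fold change -2.80, SE 0.32, adjusted p = 0.00693). This member was scarce in TAC and needed Sham libraries to pass the filter, which favours a lower value in TAC. In second place, miR-299a-5p had 17.2, 22.5 and 20.9 CPM in TAC, against 111, 121 and 73.1 CPM in Sham, again without overlap (-2.34 on the log2 scale, SE 0.29, adjusted p = 0.00693).

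At the distal end of the array, miR-409-5p had 5.07, 5.38 and 10.9 CPM in TAC, against 56.4, 55.1 and 33.0 CPM in Sham. Its highest TAC value was well below its lowest Sham value, Sham 3 (log2 fold change -2.77, SE 0.40, adjusted p = 0.00693). From a hairpin close by, miR-369-5p had 21.5, 16.6 and 18.4 CPM in TAC, against 54.2, 63.0 and 65.4 CPM in Sham, with little spread within either group (-1.69, SE 0.24, adjusted p = 0.00693).

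The other arm of that hairpin, miR-369-3p, is known from human cell lines to raise translation from an AU-rich element of the TNF transcript. It had 15.2, 16.1 and 19.9 CPM in TAC, against 86.6, 96.9 and 32.3 CPM in Sham. It was lower in TAC (log2 fold change -2.09, SE 0.43, adjusted p = 0.0155), but its 3 Sham libraries disagreed, Sham 3 being at 0.352 times the mean of Sham 1 and 2. The same library was low for miR-376c-3p, known to repress the ubiquitin ligase atrogin-1 in mouse muscle cells, which had 26.1, 15.2 and 26.3 CPM in TAC, against 91.9, 90.2 and 34.4 CPM in Sham (-1.68 on the log2 scale, SE 0.43, adjusted p = 0.0321). It was less far apart for miR-154-5p, with 22.6, 15.7 and 22.4 CPM in TAC, against 67.2, 68.2 and 40.8 CPM in Sham (-1.54, SE 0.31, adjusted p = 0.0145). Leaving out TAC 1, TAC 2, Sham 1 or Sham 2 ended the calls of miR-369-3p (adjusted p from 0.0520 to 0.0703) and miR-376c-3p (0.0869 to 0.110), and leaving out TAC 2, Sham 1 or Sham 2 that of miR-154-5p (0.0507 to 0.0691).

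Sham 3, which had the fewest UMIs, did not stand to one side for the array as a whole. It was below both other Sham libraries for 16 of the 30 tested members and above both for 10. Its sum over members was the highest of the 6 libraries.

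The remaining members that were lower were all below 25 mean CPM in Sham. The miR-666 arms had the lowest log2 fold changes of the array, -3.08 for miR-666-3p (SE 0.49, adjusted p = 0.00769) and -3.59 for miR-666-5p (SE 0.70, adjusted p = 0.0140). The miR-666-5p arm had 0, 0.978 and 0.497 CPM in TAC, against 5.55, 4.39 and 9.14 CPM in Sham, so a few molecules set its fold change. For miR-323-3p the levels were 1.17, 1.47 and 2.98 CPM in TAC, against 11.4, 12.8 and 17.6 CPM in Sham (-2.87 on the log2 scale, SE 0.42, adjusted p = 0.00693).

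Others lower by over 2 on the log2 scale were miR-412-5p at -2.48, miR-380-5p at -2.47 and miR-487b-3p at -2.37, with adjusted p-values from 0.00776 to 0.0317. A further member was miR-494-3p, known to repress the mitochondrial regulators Tfam and Foxj3 in mouse myoblasts, at -1.89 (SE 0.31, adjusted p = 0.00776). The others were miR-329-3p at -1.57, miR-341-3p at -1.48, miR-329-5p at -1.38, miR-409-3p at -1.25, miR-299b-3p at -1.23 and miR-299a-3p at -1.14, with adjusted p-values from 0.0188 to 0.0327.

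Not all members were lower by the test, and miR-134-5p stood apart. This miRNA, known for limiting dendritic spine size through Limk1 in rat hippocampal neurons, had 16.4, 16.6 and 16.9 CPM in TAC, against 16.1, 19.9 and 14.8 CPM in Sham. The groups lay on top of each other (log2 fold change -0.03, SE 0.25, adjusted p = 0.940), and the sign turned with upper-quartile factors (0.05) and without Sham 2 (0.09). Its hairpin starts less than 1 kb from that of miR-382-5p, and its level in Sham was close to that of miR-299a-3p or miR-409-3p, members that passed the test.

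Groups also overlapped for miR-381-3p, with 51.5, 59.2 and 54.6 CPM in TAC, against 54.7, 91.8 and 88.5 CPM in Sham. Sham 1 lay among the TAC values (log2 fold change -0.50, SE 0.27, adjusted p = 0.223). The similar miR-300-3p had 35.5, 39.1 and 25.3 CPM in TAC, against 61.9, 69.8 and 52.0 CPM in Sham, without overlap and just outside the threshold (-0.88, SE 0.26, adjusted p = 0.0502). It passed in 8 of 16 alternatives, among them DESeq2 (adjusted p = 0.0374).

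For miR-376b-5p, Sham 3 lay among the TAC values, with 11.3, 8.80 and 7.45 CPM in TAC, against 25.0, 27.1 and 10.5 CPM in Sham (-1.20 on the log2 scale, SE 0.40, adjusted p = 0.0711), and without Sham 3 it passed (adjusted p = 0.0124). The last members outside the threshold were scarce. For miR-540-3p the levels were 3.12, 1.47 and 5.46 CPM in TAC, against 6.39, 13.6 and 14.1 CPM in Sham (-1.71, SE 0.52, adjusted p = 0.0502). For miR-1193-3p they were 2.34, 2.93 and 2.48 CPM in TAC, against 5.28, 7.58 and 4.22 CPM in Sham (-1.15, SE 0.36, adjusted p = 0.0568). Neither overlapped between groups.

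The 8 members that failed the filter had between 3 and 14 UMIs over the TAC libraries and between 19 and 58 over the Sham libraries. They were miR-299b-5p with 9 UMIs in TAC and 26 in Sham, miR-300-5p with 3 in TAC and 22 in Sham, miR-376b-3p with 14 in TAC and 20 in Sham, and miR-485-5p with 12 in TAC and 58 in Sham. Also among them were miR-496a-3p with 9 in TAC and 24 in Sham, miR-540-5p with 8 in TAC and 19 in Sham, miR-665-3p with 6 in TAC and 25 in Sham, and miR-673-3p with 12 in TAC and 47 in Sham. The libraries held 7314448 miRNA UMIs in all in TAC, against 6980093 in Sham. All 8 totals were lower in TAC. However, each of these rows reached 10 UMIs in a Sham library and in no TAC library. Being listed thus depended on Sham, and the direction of these totals is not a separate result.

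Members lower in TAC were spread along the whole locus. Of 27 tested members in the array proper, 22 were lower, with a median log2 fold change of -1.68, and of 3 upstream 2 were lower, with a median of -1.71. Across members with a hairpin position, the log2 fold change and that position had r = 0.16 and rho = -0.08 (n = 28). The miR-666 arms, with the lowest fold changes, had no hairpin position and were left out. These values are given as a description since neighbouring hairpins share transcripts and libraries. The log2 fold change was less negative in more abundant members (r = 0.36, rho = 0.40, n = 30) and had r = -0.17 with GC content (n = 28). A member scarce in TAC passed the filter only by being high in Sham, which favours such a trend with abundance. The trend with abundance is therefore not a separate result.

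Other miRNAs of the region, which are not members, were lower as well. Of 10 tested rows from 6 hairpins, 9 were lower and miR-337-3p did not pass (log2 fold change -0.41, SE 0.37, adjusted p = 0.442), with a median of -1.59. The most abundant, miR-434-3p, had 196, 153 and 300 CPM in TAC, against 885, 900 and 953 CPM in Sham (-2.08, SE 0.29, adjusted p = 0.00693). It was followed by miR-434-5p (-1.45 on the log2 scale), miR-127-3p (-1.87), miR-127-5p (-2.33) and miR-136-3p (-1.44), with 43.8, 20.2, 13.1 and 18.4 mean CPM in TAC, against 120, 73.7, 65.6 and 49.4 mean CPM in Sham. The ratio of member UMIs to those of these 10 rows was 2.89, 3.18 and 2.21 in TAC, against 1.86, 1.80 and 2.08 in Sham, without overlap. Whether members and these rows differ in their change was not tested. Outside the region, 282 tested miRNAs had 18 lower and 20 higher, with a median of 0.15.

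The arms of a hairpin are cut from the same precursor, so their ratio is a measure separate from the amount of that precursor. Over 78 hairpins with both arms tested, 0 (0%) changed their arm ratio by edgeR's test of differential use of the arms, 17 had an unadjusted p under 0.05, and with the replicate number as a block 18 passed. No other tool was run for arms. Members gave 5 such hairpins. For miR-299a the 5p arm held 68.8%, 73.0% and 72.4% of the hairpin's UMIs in TAC, against 86.6%, 86.4% and 81.3% in Sham. The shares did not overlap, the 5p arm being lower by 1.20 more than the 3p arm on the log2 scale (edgeR adjusted p = 0.0912, and 0.0310 with the block). How counts were split between miR-299a and miR-299b is uncertain. Shares also did not overlap for miR-122, miR-140, miR-148b, miR-337, miR-339, miR-362, miR-378a, miR-423, miR-483, miR-532 and miR-664, which are not members.

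For miR-409 the 5p arm held 41.9%, 34.4% and 61.1% in TAC, against 77.2%, 77.1% and 56.6% in Sham. The third library of each group crossed over, and the arms differed by 1.52 on the log2 scale (edgeR adjusted p = 0.0912, and 0.0313 with the block). The arm ratios of miR-329, miR-369 and miR-666 had adjusted p-values of 0.663 or more. For the 3 most abundant hairpins, miR-379, miR-541 and miR-411, the other arm had no row in the table used here.

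**Figure D2:**
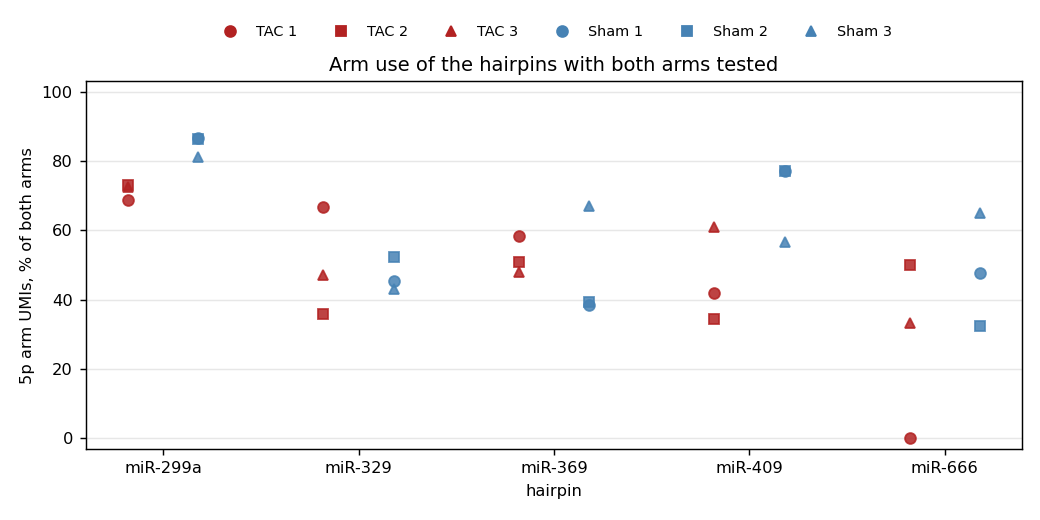
Share of the 5p arm among the UMIs of both arms, in percent, for the 5 member hairpins with both arms tested, per library with TAC left of Sham. Among these 5, only for miR-299a do all TAC libraries (68.8% to 73.0%) lie apart from all Sham libraries (81.3% to 86.6%). Several hairpins outside the members, among the 78 tested, were apart as well. The miR-666 shares rest on few UMIs.

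Single-base forms of 2 abundant members took a larger share of their miRNA in TAC. Base 5 of miR-379-5p and of miR-411-5p is a known site of A-to-I editing, in which ADAR enzymes deaminate adenosine to inosine, which is sequenced as guanosine. The table of mappable sequences without annotation held the corresponding G forms, which were picked out after their values were seen. They are given after the annotated arms with base 5, counted from 1 at the 5′ end of the annotated arm, in capitals. For miR-411-5p a form starting 1 base upstream was listed as well.

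miR-379-5p annotated: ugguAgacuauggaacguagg
miR-379-5p A5G: tggtGgactatggaacgtagg
miR-411-5p annotated: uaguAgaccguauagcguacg
miR-411-5p A5G: tagtGgaccgtatagcgtacg
miR-411-5p A5G, 1 base longer: atagtGgaccgtatagcgtacg

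The A5G base lies within the seed. For miR-379-5p the A5G form made up 2.56%, 2.15% and 2.68% of UMIs of form and arm in TAC, against 0.898%, 0.915% and 0.301% in Sham. All TAC shares were above all Sham shares, at 2.47% ± 0.281 in TAC and 0.705% ± 0.350 in Sham (SD, n = 3 each), and the exact two-sided permutation test gave p = 0.1, the smallest that 3 against 3 allows. The form rested on 49 UMIs in TAC and 36 in Sham. Its own level was 8.19, 6.36 and 7.45 CPM in TAC, against 5.28, 5.59 and 2.11 CPM in Sham. It was thus not lower in TAC, as the annotated arm was, and its difference did not pass the test (0.37 on the log2 scale, SE 0.36, adjusted p = 0.652 over the sequences without annotation). That fit was scaled to the sequences without annotation, not to miRNA UMIs.

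For miR-411-5p the A5G forms made up 13.4%, 6.75% and 9.44% in TAC, against 4.76%, 3.50% and 4.29% in Sham. Groups were again apart, at 9.87% ± 3.36 in TAC and 4.18% ± 0.640 in Sham (SD, n = 3 each, exact permutation p = 0.1), from 73, 28 and 32 UMIs in TAC and 75, 42 and 19 in Sham. Benjamini-Hochberg adjustment over the 2 miRNAs left both p-values at 0.1. It does not cover the choice of these 2 after their values were seen. The forms' own level was 28.5, 13.7 and 15.9 CPM in TAC, against 20.8, 16.8 and 13.4 CPM in Sham, and overlapped between groups, while the annotated arm was lower in TAC. Whether the counts of the arms also include such forms is not given in the sources used here.

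Set against their own arm in a fit over all single-base variants of listed miRNAs (287 tested of 484), the miR-379-5p A5G form was the only one of 287 that passed (0.348%), with a relative log2 fold change of 1.21 (adjusted p = 0.0173). At an unadjusted p under 0.05, 23 variants passed. The miR-411-5p forms had relative log2 fold changes of 0.89 (adjusted p = 0.140) and, for the longer form, 0.82 (adjusted p = 0.218). With the replicate number as a block, 7 variants passed and the miR-411-5p forms were among them (adjusted p = 0.0245 and 0.0309). The miR-379-5p call was lost without TAC 1, TAC 2, TAC 3, Sham 1 or Sham 2 (adjusted p from 0.0571 to 0.319) and stayed without Sham 3 (0.0416), with a relative log2 fold change between 1.00 and 1.38 over these 6 fits.

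These shares were well above those of other A-to-G forms. Of 98 A-to-G variants, the 3 listed here were the only ones with a median share over 1%, and the highest outside the members was miR-206-3p A5G at 0.176%. The median over the 98 was 0.0421%.

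**Figure D3:**
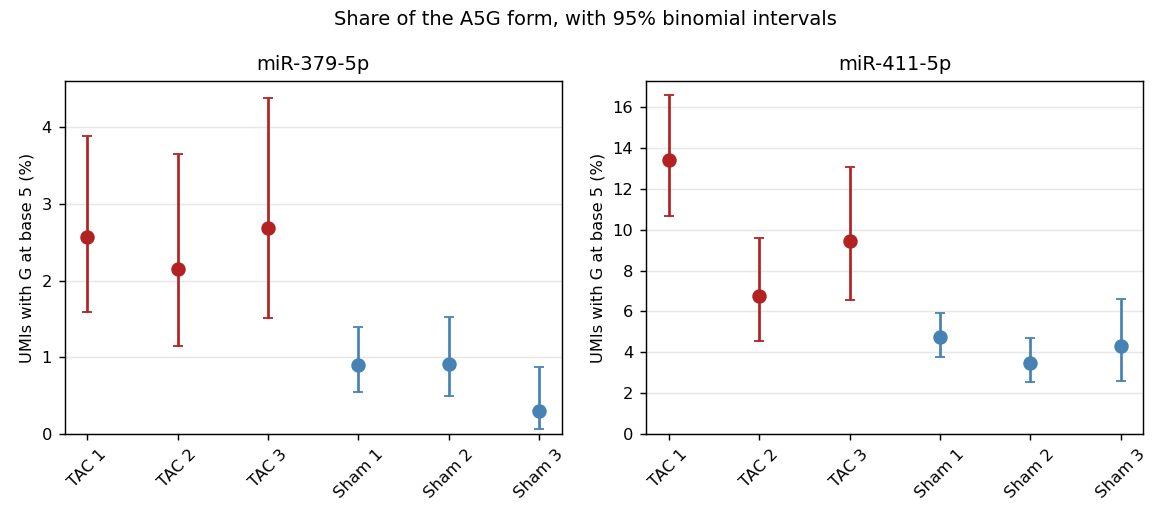
Share of UMIs with G at base 5 of miR-379-5p (left) and miR-411-5p (right) in each library, in percent of form and annotated arm, with exact (Clopper-Pearson) 95% binomial intervals that cover counting error only. TAC shares lie above Sham shares for both miRNAs, and some intervals of the 2 groups overlap.

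The same table held the 3p arm of miR-382 in a form that starts 2 bases upstream of the annotated arm, which moves the seed. The annotated arm has no row in the miRNA table used here. The annotated arm and the form are shown with the seed of each in capitals.

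miR-382-3p annotated: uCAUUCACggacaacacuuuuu
miR-382-3p form: aATCATTCacggacaacacttt

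Both listed lengths of this form together had 5.46, 5.87 and 6.95 CPM in TAC, against 29.4, 21.1 and 31.6 CPM in Sham. TAC and Sham were far apart, at 6.09 ± 0.772 CPM in TAC and 27.4 ± 5.53 CPM in Sham (SD, n = 3 each), a ratio of 0.222. In a fit over 1244 sequences of that table, of which 0.161% passed, the 22-base form changed by -2.45 on the log2 scale (SE 0.33, adjusted p = 0.0338) and the 21-base form had a value of -2.53 (SE 0.42, adjusted p = 0.0541). Both lengths were scarce in TAC and passed the filter for this fit only with Sham libraries, which favours a lower value in TAC. That fit was scaled to the sequences without annotation, not to miRNA UMIs. The 5p arm of the same hairpin, miR-382-5p, stood at -1.81.

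Fragments of the maternal transcripts were scarce. Per 1000000 miRNA UMIs, fragments of Mirg numbered 6.26, 9.32 and 4.79 in TAC, against 14.0, 25.4 and 24.6 in Sham, from 49 UMIs in TAC and 137 in Sham. Rian, the host of a small nucleolar RNA cluster, had 1.04, 0 and 0.872 in TAC, against 1.45, 4.24 and 2.54 in Sham, from 5 UMIs in TAC and 18 in Sham. The values of both were lower in all TAC libraries than in all Sham libraries, and no transcript of either passed the filter for a test. The Mirg values are sums over 4 transcripts, and taken singly most of these overlapped between groups. How often other RNAs were apart in this way was not counted. The small nucleolar RNA AF357425 had 5.72 ± 1.06 in TAC and 14.1 ± 0.454 in Sham and did not pass the test over other RNAs, in which 2.86% passed (log2 fold change -1.04, SE 0.33, adjusted p = 0.0965). Fragments of Rtl1, the paternally expressed gene on the strand opposite miR-127, miR-434 and miR-136, were at 19.0 ± 4.43 in TAC and 74.8 ± 13.4 in Sham and were lower in the fit over mRNA fragments, in which 8.16% passed (-1.39, SE 0.36, adjusted p = 0.00261), although reads of the opposite strands may not have been told apart. The fits over other RNAs and over mRNA fragments were each scaled within their own RNA class, not to miRNA UMIs. Their fold changes are therefore not the ratios of the levels given here. Meg3, Dlk1 and Dio3 had no row in the tables used here. Fragments in a small RNA library are not a measure of the full transcript.

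Other features of the libraries moved with the groups. Muscle miRNAs (7 of 7 listed) summed to 634592 to 702505 CPM in TAC and 442736 to 588115 CPM in Sham, and 2 of them were lower in TAC, the slow-fibre miR-208b-3p (log2 fold change -6.65, adjusted p = 0.00769) and miR-206-3p (-2.37, adjusted p = 0.0342). The others did not pass, with miR-499-5p (-3.30) and miR-486a-5p (-0.25) below 0 and miR-1a-3p (0.27), miR-133a-3p (0.63) and miR-133b-3p (0.80) above 0. Neural markers (6 of 14 listed, while the brain miRNAs miR-124-3p, miR-137-3p and miR-219a-5p were among those with no row) summed to 3888 to 4238 CPM in TAC and 3345 to 4213 CPM in Sham, with miR-218-5p lower (-0.86, adjusted p = 0.0411). The other listed ones did not pass, with miR-149-5p (0.53), miR-7a-5p (0.40) and miR-128-3p (0.01) above 0 and miR-9-5p (-0.08) and miR-138-5p (-0.003) below 0. Both liver miRNAs were higher in TAC and summed to 83.5 to 1997 CPM in TAC and 4.92 to 20.7 CPM in Sham.

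Endothelial miRNAs summed to 35438 to 37701 CPM in TAC and 26488 to 40858 CPM in Sham, and smooth muscle ones to 20453 to 27176 CPM in TAC and 16934 to 23844 CPM in Sham. Immune miRNAs summed to 1384 to 1505 CPM in TAC and 1404 to 1921 CPM in Sham, erythroid ones to 75.0 to 167 CPM in TAC and 50.6 to 122.9 CPM in Sham, and fibroblast ones (5 of 5 listed, in 4 rows, since miR-199a-3p and miR-199b-3p share one) to 5750 to 8721 CPM in TAC and 6209 to 7966 CPM in Sham. None of the miRNAs tested in these 5 lists passed the test. Of 5 listed epithelial markers 3 were lower in TAC, and the epithelial sum was 174 to 429 CPM in TAC and 152 to 330 CPM in Sham. The part of muscle fibre type or of other cells in the members' levels was not tested. All TAC columns are numbered before all Sham columns in the deposited table, and what this order may have added cannot be told apart from TAC.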

How the data were processed

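Small RNA of 3 TAC and 3 Sham mouse skeletal muscle libraries was measured. The authors deposited raw UMI and read counts per library for miRNAs, other RNAs and unannotated sequences, per the file headers. Per the submitters' processing notes, GRCm38 was used; the sources used here give neither aligner nor counting rules. Columns were matched to samples by their descriptions.

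UMI counts of all listed miRNAs were fitted with edgeR 4.0.16 in R 4.3.3 (TMM normalization, a filterByExpr cut at 10 counts and 15 in total, two-sided quasi-likelihood F test, Benjamini-Hochberg adjustment over all tested miRNAs, threshold 0.05). The SE was taken from the fold change and F. CPM is per 1000000 TMM-scaled miRNA UMIs. Arm use and single-base variants against their arm were tested with diffSpliceDGE. DESeq2 1.42.0 and limma-voom (limma 3.58.1) were alternatives. Each test was checked on simulated data. Libraries held 2874724, 2145221 and 2294503 miRNA UMIs in TAC 1, 2 and 3, and 3440232, 2360496 and 1179365 in Sham 1, 2 and 3; read counts per UMI over members were 1.02 to 1.03.

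The members and lists were chosen with earlier results of these data known. Values for each library are given for the 12 most abundant tested members, the 5 with the smallest p and those that did not pass; miR-323-3p, miR-666-5p and the A5G and miR-382-3p forms were chosen after their values were seen. Same-numbered libraries deviated together (r = 0.33, 0.31 and 0.59 for numbers 1, 2 and 3, against a criterion of 0.1), which read the numbers as pairs, although Sham 1 had r = 0.34 with TAC 2 and Sham 2 had r = 0.39 with TAC 1. Within groups no libraries were duplicates. Intervals are exact binomial at the 95% level.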

Additional observations from a re-analysis of the deposited data

How the results depend on the processing

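The number of members lower in TAC was 24 with RLE factors or no filter, 23 with upper-quartile factors, 28 with library sizes only or sizes over all RNA classes, 25 with DESeq2, limma-voom or reads, 28 at a threshold of 0.1, 29 without both libraries numbered 3, and 7 to 24 leaving out 1 library; 0 were higher in each of these. With the replicate block as the paired analysis it was 27. Leaving out libraries also gave 17 to 73 of all miRNAs, 4 to 8 of 10 other rows of the region (4 without TAC 2, Sham 1 or Sham 2) and 0 to 11 hairpins with changed arm use (11 without TAC 3, 4 without Sham 3). Over all miRNAs the block gave 111 and leaving out both libraries numbered 3 gave 129. Arm use gave 9 hairpins at the threshold of 0.1, 18 with the block and 20 without both libraries numbered 3. The summed ratio was 0.308 with library sizes only, 0.315 with sizes over all RNA classes and 0.372 to 0.404 leaving out 1 library. Library sizes only moved the median of all miRNAs to -0.24 and that of the members to -1.96. Of 480 single-member results, 397 kept their side of the threshold, 60 lost and 21 gained it, and 2 turned sign, miR-134-5p at 0.049 (upper-quartile factors) and 0.091 (without Sham 2, in a range from -0.047 leaving out 1 library). Leaving out both libraries numbered 3 and all alternatives for the A5G forms were chosen after seeing the data. Fits with 5 libraries have fewer degrees of freedom, and scarce members rest on few UMIs, so their fold changes are loosely set.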
